A study of Mus musculus with 8 samples.

Results

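The core circadian clock genes are a set of 10 genes, Clock, Npas2, Arntl, Per1, Per2, Per3, Cry1, Cry2, Dbp and Tef, chosen by name as the gene models that carry one of these symbols. Each symbol marked a single model, so that 10 of the 56324 gene models in the deposited table were described. All groups came from male C57BL/6 mice labelled Sam68 -/-, knockouts of the gene Khdrbs1, whose product Sam68 binds RNA, and were aged 12 weeks and kept under cycles of 12 h light and 12 h dark. Spermatids, the haploid cells formed after meiosis, gave 4 libraries, and spermatocytes, the cells in meiosis, gave 4. Both were separated by size in a Sta-put sedimentation gradient, and stranded libraries were made from polyadenylated RNA. The labels give neither the hour of the day at which testes were taken nor the cells in which Sam68 was deleted, and libraries of another genotype were not analysed here.

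The mammalian clock is a feedback loop of transcription. CLOCK or its relative NPAS2 pairs with ARNTL (BMAL1) and binds E-box elements in DNA, which drives the Period and Cryptochrome genes; PER and CRY proteins then enter the nucleus and repress that pair, and most tissues show daily rhythms of these RNAs. DBP and TEF are PAR bZIP transcription factors that bind D-box elements and carry rhythms to other genes. In mouse testis the clock RNAs are known to differ from this scheme, with little daily change and levels that follow the stage of germ cell development.

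The deposited values are read counts divided by 1 size factor per library, called normalized counts here. Read totals ranged from 60673309 to 93975960 in spermatid libraries and from 49000266 to 78060212 in spermatocyte libraries, and the members had from 51 reads (Npas2) to 14245 reads (Per1) in a library. The cell type labels were set against marker genes. All 10 spermatid markers were higher in spermatids, with mean log2 levels of 15.01 to 15.45 in spermatids and 10.26 to 10.7 in spermatocytes. Of 8 spermatocyte markers, 4 were lower in spermatids and 1 was higher, with mean log2 levels of 11.19 to 11.85 in spermatids and 11.8 to 13.17 in spermatocytes. Markers of somatic cells were present on both sides: 11 of 12 Sertoli cell markers were lower in spermatids (summed level 3073.6 to 6471.8 normalized counts in spermatids and 31289.9 to 148456.9 in spermatocytes), as were 6 of 6 Leydig cell markers (226.2 to 1429.4 in spermatids and 3889.1 to 7785.0 in spermatocytes). By contrast 9 of 9 tested macrophage and blood markers were higher in spermatids (3194.6 to 6600.5 in spermatids and 121.7 to 183.4 in spermatocytes), of which Tyrobp and Hba-a1 were at 0 in some libraries. Of the remaining lists, 4 of 8 spermatogonia markers and 3 of 4 peritubular cell markers were higher in spermatids. Khdrbs1 had 814.8 ± 233.0 normalized counts in spermatids and 4133.0 ± 676.3 in spermatocytes (SD, n = 4 each), which does not check the genotype, since its gene model may hold parts outside the deletion. In bulk RNA, fewer cells of a type and less RNA per cell cannot be told apart.

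The promoters of 4 members are shown because they hold the elements through which the loop is known to act, in both families of repressors. They are the 250 bases upstream of the RefSeq start in GRCm38.p6, written 5′ to 3′ along the gene, with capitals for matches to the motifs searched on both strands. The Per1 window is chr11:69098699-69098948 (plus strand), the Per3 window chr4:151044666-151044915, the Cry1 window chr10:85185055-85185304 and the Cry2 window chr2:92434070-92434319 (the last 3 on the minus strand).
Per1: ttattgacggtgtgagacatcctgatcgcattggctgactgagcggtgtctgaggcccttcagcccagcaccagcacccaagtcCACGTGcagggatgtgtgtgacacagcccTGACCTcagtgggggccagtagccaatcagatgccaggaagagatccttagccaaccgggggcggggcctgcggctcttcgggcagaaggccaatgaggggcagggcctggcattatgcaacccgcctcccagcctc
Per3: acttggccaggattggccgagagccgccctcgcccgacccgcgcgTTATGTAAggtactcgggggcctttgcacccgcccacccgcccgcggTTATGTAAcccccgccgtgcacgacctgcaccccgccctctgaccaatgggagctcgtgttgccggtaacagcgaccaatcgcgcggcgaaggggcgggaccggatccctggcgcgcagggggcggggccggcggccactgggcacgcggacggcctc
Cry1: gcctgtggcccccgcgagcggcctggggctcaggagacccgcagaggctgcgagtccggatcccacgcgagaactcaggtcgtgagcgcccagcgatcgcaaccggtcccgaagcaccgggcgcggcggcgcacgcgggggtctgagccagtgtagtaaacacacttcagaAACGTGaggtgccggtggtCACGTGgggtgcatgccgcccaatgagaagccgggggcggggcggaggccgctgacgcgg
Cry2: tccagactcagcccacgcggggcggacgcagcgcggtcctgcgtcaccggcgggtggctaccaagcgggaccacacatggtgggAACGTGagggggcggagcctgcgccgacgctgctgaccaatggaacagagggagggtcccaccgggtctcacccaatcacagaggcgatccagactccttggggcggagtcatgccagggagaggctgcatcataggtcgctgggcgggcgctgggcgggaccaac

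Counted from the start site, Per1 held an E-box (CACGTG) at -166 and at -137 the letters AGGTCA (here on the other strand), the core that ROR proteins and other nuclear receptors bind; the flank of a full ROR element was not searched. Per3 held a pair of D-boxes (TTATGTAA), at -205 and -158. Cry1 held an E′-box (CACGTT, on the other strand) at -79 and an E-box at -60, and Cry2 an E′-box, also on the other strand, at -166. Over windows of 300 bases, which add the 50 bases after the start, both listed Tef promoters held an E-box, 1 of 3 Clock promoters and 1 of 2 Arntl promoters the AGGTCA core, and those of Npas2 and Dbp and the second of Per1 none of the motifs searched. Of 32851 such mouse promoters, 7.15% held an E-box, 4.68% an E′-box, 0.938% a D-box, 16.3% the AGGTCA core and 1.79% a CRE (TGACGTCA), the last found in no member window. RefSeq promoters were matched for 9 of the 10 members, all but Per2. A match is a description of letters, and binding was not measured.

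Spermatids held far less Cry1 RNA and less Cry2 and Clock RNA than spermatocytes, and more Per2 and Arntl RNA. A gene was called when limma gave a Benjamini-Hochberg adjusted p below 0.05 over all 28735 tested models and a change of at least 2-fold. All 10 members were tested and 5 were called, 2 higher and 3 lower in spermatids. Over all tested models 62.3% were called, 32.5% higher and 29.8% lower, so the members' share, 5 of 10, lay near that of all genes. At any fold, 6 members and 72.3% of all models passed the adjusted p. The groups did not overlap for 6 members, against 66.4% of all models. The median log2 fold change was -0.18 over the members and -0.01 over all models.

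**Figure D1:**
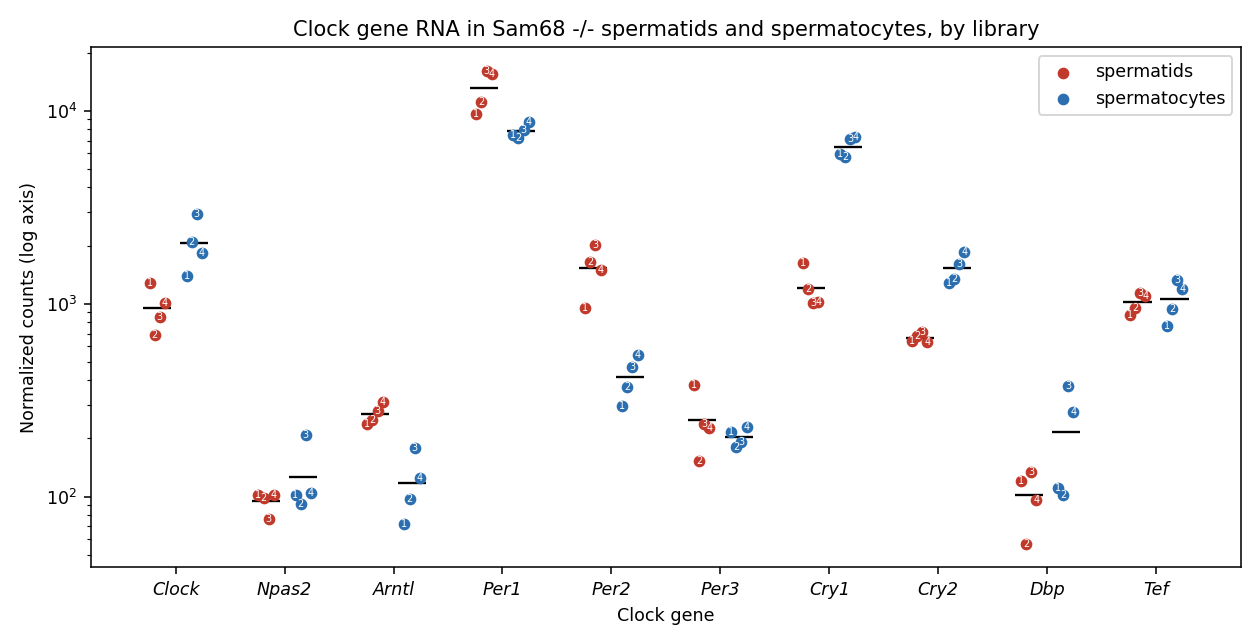
Normalized counts of the 10 clock genes (vertical axis, log scale) in each spermatid library (red, left of each pair) and spermatocyte library (blue); numbers in the points are library numbers and black bars are group means. The groups stand apart for Clock, Arntl, Per1, Per2, Cry1 and Cry2 and overlap for Npas2, Per3, Dbp and Tef.

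Among the activators, Clock and Arntl, whose proteins form 1 complex, differed in opposite directions. Clock, on chromosome 5 from 76210967 to 76304792 of mm10, encodes the E-box binding partner of ARNTL. It had 1275.3, 685.9, 849.7 and 1003.5 normalized counts in the spermatid libraries, against 1388.6, 2092.3, 2918.6 and 1839.2 in the spermatocyte libraries. Every spermatid library lay below every spermatocyte library, but spermatid library 1 came close to spermatocyte library 1. The means were 953.6 ± 250.6 in spermatids and 2059.7 ± 642.3 in spermatocytes (SD, n = 4 each), and limma gave -1.10 ± 0.26 on the log2 scale (SE; adjusted p = 0.00211). Its size stood near the 2-fold threshold: without spermatocyte library 3 it was -0.91, without spermatid library 2 it was -0.95 and with TMM scaling -0.96, all under 2-fold. A correction for GC content, of which the Clock transcript has 40.9%, gave -2.21. Relative to the median of models with a known GC content, Clock stood at -1.35 uncorrected and -1.78 once corrected.

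Arntl, on chromosome 7 from 113207465 to 113314124, encodes the partner that the loop needs. It had 239.1, 249.5, 277.7 and 309.1 normalized counts in the spermatid libraries, against 72.5, 97.2, 177.8 and 124.4 in the spermatocyte libraries. The spermatid values lay close together and above all spermatocyte values, which spread more widely and were highest in library 3. The means were 268.9 ± 31.4 in spermatids and 118.0 ± 45.2 in spermatocytes, a 2.28-fold difference (SD, n = 4 each), and limma gave 1.25 ± 0.30 on the log2 scale (SE; adjusted p = 0.00219). The direction held under every scaling tried, but the change was under 2-fold with equal totals per library (0.82), with quantile normalization (0.86) and once corrected for GC content (0.53, limma adjusted p = 0.0879). Those 3 settings also shifted the median of all models, to -0.44, -0.36 and -0.44 (the last over models with a known GC content, whose uncorrected median was 0.25), and relative to that median Arntl stood at 1.26, 1.23 and 0.97.

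Npas2, on chromosome 1 from 39194204 to 39363240, encodes a relative of CLOCK that can take its place. It had 102.1, 98.1, 76.6 and 102.3 normalized counts in spermatids, against 101.5, 91.3, 208.0 and 103.9 in spermatocytes. The groups overlapped, and spermatocyte library 3 alone stood high. Its log2 fold change was -0.34 ± 0.31 SE and it was not called (limma adjusted p = 0.348). Within a library, where size factors cancel, the log2 ratio of Npas2 to Clock was -3.29 ± 0.36 in spermatids and -4.05 ± 0.35 in spermatocytes (SD, n = 4 each; difference 0.76, exact two-sided permutation p = 0.0286, the smallest that 4 against 4 libraries can give, adjusted p = 0.0429 over 6 pairs). Per kilobase of exon, Clock and Npas2 together stood at 2.53 ± 0.712 times the level of Arntl in spermatids and 11.6 ± 1.77 times in spermatocytes, with no overlap.

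Among the repressors, Per2 was higher in spermatids, Per1 and Per3 were not called and both Cryptochrome genes were lower. Per1, on chromosome 11 from 69095252 to 69109963, was the most abundant Period RNA, at percentile 94.7 of tested models in spermatids and 94.1 in spermatocytes. It had 9572.9, 11151.6, 16051.1 and 15504.2 normalized counts in spermatids, against 7490.2, 7223.8, 7942.7 and 8730.4 in spermatocytes. All spermatid libraries were above all spermatocyte libraries, and libraries 3 and 4 were the highest among spermatids. The difference passed the adjusted p but not the fold threshold (0.71 ± 0.20 SE on the log2 scale, limma adjusted p = 0.006), and the adjusted p was lost with equal totals (0.27, limma adjusted p = 0.145), once corrected for GC content (0.28, limma adjusted p = 0.231) and with quantile normalization (0.11, limma adjusted p = 0.534). Relative to the median of all models, Per1 stood at 0.71 with equal totals, 0.48 with quantile normalization and 0.72 as deposited. Relative to the median of models with a known GC content, it stood at 0.45 uncorrected and 0.71 once corrected.

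Per2, on chromosome 1 from 91415982 to 91459332, encodes a Period protein that lasting rhythms need in the mouse. It had 953.8, 1643.8, 2019.1 and 1488.9 normalized counts in spermatids, against 294.2, 369.0, 467.4 and 541.2 in spermatocytes. The lowest spermatid library, library 1, was above the highest spermatocyte library. The means were 1526.4 ± 441.9 in spermatids and 417.9 ± 108.5 in spermatocytes, a 3.65-fold difference (SD, n = 4 each), and limma gave 1.85 ± 0.27 on the log2 scale (SE; adjusted p = 5.05e-05). It was called in all 22 alternatives, with log2 fold changes of 1.42 to 2.16.

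Per3, on chromosome 4 from 151003655 to 151044666, is the Period gene that the mouse clock can run without. It had 380.6, 152.3, 238.7 and 227.5 normalized counts in spermatids, against 216.8, 181.6, 192.3 and 228.3 in spermatocytes. Spermatid libraries 1 and 2 were the highest and the lowest of all 8, on either side of the spermatocyte libraries. It was not called (0.22 ± 0.29 SE on the log2 scale, limma adjusted p = 0.514).

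Cry1, on chromosome 10 from 85131702 to 85185065, encodes the stronger of the Cryptochrome repressors, and showed the largest difference of the 10 genes. It had 1626.4, 1191.5, 1005.8 and 1024.2 normalized counts in spermatids, against 5958.2, 5733.1, 7101.8 and 7266.7 in spermatocytes. The groups lay far apart, with spermatid library 1 nearest to the spermatocytes. The means were 1212.0 ± 288.6 in spermatids and 6515.0 ± 781.2 in spermatocytes, a level 5.38-fold lower in spermatids (SD, n = 4 each), and limma gave -2.45 ± 0.19 on the log2 scale (SE; adjusted p = 2.77e-07). It was called in all 22 alternatives, with log2 fold changes of -2.98 to -2.30.

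Cry2, on chromosome 2 from 92403650 to 92434069, encodes the other Cryptochrome repressor. It had 641.2, 682.2, 710.1 and 633.4 normalized counts in spermatids, against 1283.8, 1346.4, 1597.9 and 1862.1 in spermatocytes. The spermatid libraries lay within a narrow band, with an SD of 0.08 on the log2 scale against 0.33 for the median model, and all were below the spermatocytes. The means were 666.7 ± 35.9 in spermatids and 1522.6 ± 263.9 in spermatocytes, a level 2.28-fold lower in spermatids (SD, n = 4 each), and limma gave -1.18 ± 0.18 on the log2 scale (SE; adjusted p = 9.09e-05). It stayed past the threshold without any 1 library, and was at -0.98 without spermatocyte libraries 3 and 4 together.

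Among the D-box binding outputs neither gene was called. Dbp, on chromosome 7 from 45705247 to 45710203, is a direct target of CLOCK and ARNTL in other tissues. It had 120.9, 57.0, 133.6 and 95.8 normalized counts in spermatids, against 111.2, 102.1, 373.5 and 274.0 in spermatocytes. Spermatocyte libraries 3 and 4 stood high, while libraries 1 and 2 lay within the spermatid range. Its log2 fold change was -0.92 ± 0.45 SE (limma adjusted p = 0.08). Count tests on the recovered reads called it lower in spermatids (edgeR -1.03, adjusted p = 0.0396; DESeq2 -1.07, adjusted p = 0.0231), and without spermatocyte libraries 3 and 4 it was at -0.14. Tef, on chromosome 15 from 81802419 to 81826861, had 877.7, 954.1, 1131.9 and 1101.5 normalized counts in spermatids, against 763.2, 937.2, 1320.6 and 1187.3 in spermatocytes. These values overlapped almost wholly (-0.03 ± 0.21 SE on the log2 scale, limma adjusted p = 0.918).

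**Figure D2:**
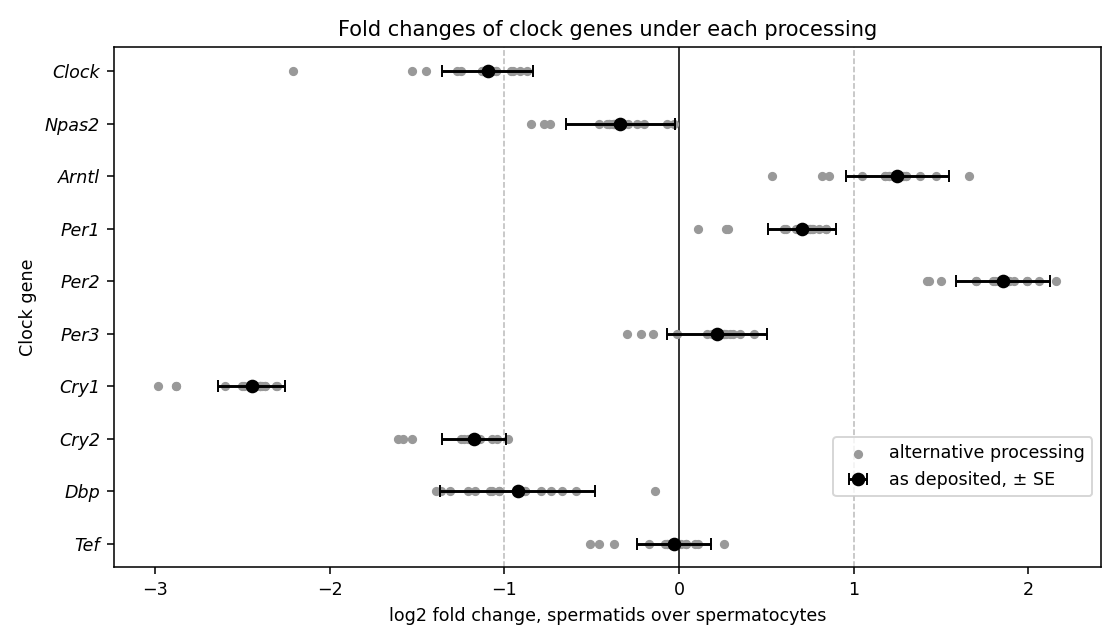
Log2 fold change of each clock gene, spermatids over spermatocytes (horizontal axis), with values as deposited (black point, bar of 1 SE) and under each alternative processing (grey points); dashed lines mark 2-fold. Cry1, Cry2, Clock, Npas2 and Dbp stay left of 0 and Per2, Arntl and Per1 right of 0 in every alternative, while Per3 and Tef cross it.

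Within each cell type the same libraries recurred at the edge. In all 10 members the highest spermatocyte value was in library 3 (Clock, Arntl, Npas2, Dbp and Tef) or library 4 (all Period and Cryptochrome genes), against 63.3% of all tested models for these libraries, 35.0% for library 3 and 28.4% for library 4. For the Sertoli cell markers the mean log2 levels were 9.27, 9.88, 11.38 and 10.22 in spermatocyte libraries 1 to 4, and so also highest in library 3, and 7.63, 6.51, 7.52 and 7.62 in the spermatid libraries. Of the 6 members whose groups did not overlap, spermatid library 1 was nearest to the spermatocyte mean in 5 (all but Cry2), against 48.1% of the 19082 such models. Spermatid library 1 also had the highest mean level of the spermatocyte markers among spermatid libraries, 11.85, and of the macrophage and blood markers, 8.46, and was the highest for the spermatogonia (8.43), Leydig (7.64), peritubular (8.69) and Sertoli (7.63) lists as well. Spermatocyte library 4 had the lowest mean level of the spermatocyte markers among spermatocyte libraries, 11.8 against 12.86 to 13.17, below the 11.85 of spermatid library 1. The part of these markers in the clock gene values was not tested. Without spermatocyte libraries 3 and 4, 3 of the 10 members were called (Arntl, Per2 and Cry1), against 62% of all models. Clock was then at -0.87 and Cry2 at -0.98 (limma adjusted p = 0.00935 and 0.000364), so both passed the adjusted p but not the fold threshold.

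Ratios between relatives within a library showed which gene of a family carried more of the difference. The log2 ratio of Cry1 to Cry2 was 1.34, 0.80, 0.50 and 0.69 in the spermatid libraries, against 2.21, 2.09, 2.15 and 1.96 in the spermatocyte libraries. The spermatid ratios were all lower, so Cry1 and Cry2 fell by unequal amounts (difference -1.27, exact two-sided permutation p = 0.0286, adjusted p = 0.0429, n = 4 each). The log2 ratio of Per1 to Per2 was 3.11 ± 0.29 in spermatids and 4.26 ± 0.29 in spermatocytes (SD, n = 4 each; difference -1.15, exact permutation adjusted p = 0.0429). That of Per3 to Per2 was -2.63 ± 0.92 in spermatids and -0.99 ± 0.39 in spermatocytes (SD, n = 4 each; difference -1.64, exact permutation adjusted p = 0.0429). Per1 over Per3 (5.75 ± 0.73 in spermatids and 5.26 ± 0.11 in spermatocytes) and Dbp over Tef (-3.37 ± 0.53 in spermatids and -2.47 ± 0.62 in spermatocytes) overlapped between groups, with exact permutation adjusted p = 0.143 and 0.137 (n = 4 each). In all, 4 of the 6 pairs passed, and none can pass with 1 library fewer, where the smallest possible p is 0.0571.

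**Figure D3:**
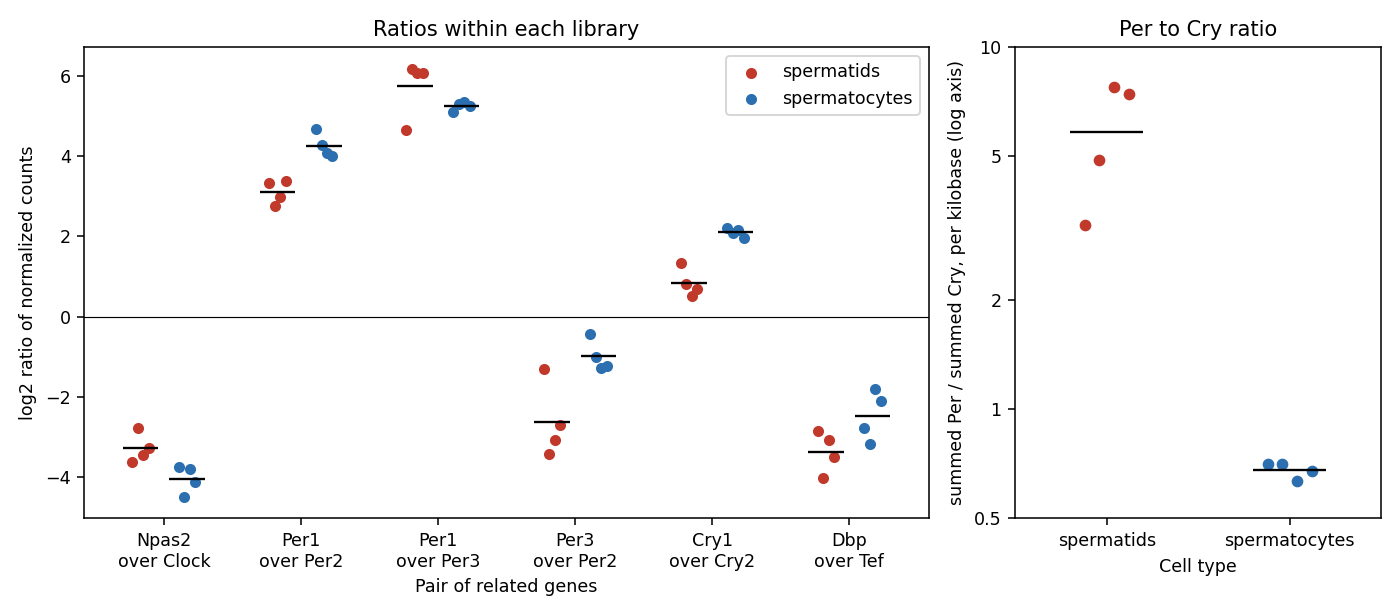
Left, log2 ratio of normalized counts for 6 pairs of related clock genes in each spermatid library (red) and spermatocyte library (blue), with group means as bars; right, summed Per level over summed Cry level per kilobase of exon (log axis). The Per to Cry ratio lies between 3.23 and 7.79 in spermatids and between 0.635 and 0.707 in spermatocytes.

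Levels were compared between genes per kilobase of exon, with gene lengths from GENCODE. In spermatids Per1 led with a mean of 2321.1 normalized counts per kilobase, followed by Cry1 at 362.9 and Per2 at 260.7, whose ranges overlapped. Tef at 129.2 and Cry2 at 105.5 followed and overlapped each other, though Tef was above Cry2 in all 4 libraries, then Clock at 69.5. Arntl at 35.7, Dbp at 34.0, Per3 at 26.0 and Npas2 at 19.8 came last, each overlapping the next. Within a library, Arntl was above Dbp in 2, Dbp above Per3 in 4 and Per3 above Npas2 in 3. In spermatocytes Cry1 led at 1950.6, above Per1 at 1393.5 in every library. Cry2 at 240.9, Clock at 150.0, Tef at 133.7, Dbp at 71.9 and Per2 at 71.4 followed, each overlapping the next. Within a library, Cry2 was above Clock and Tef above Dbp in all 4, Clock above Tef in 3 and Dbp above Per2 in 1. Npas2 at 26.3, Per3 at 21.3 and Arntl at 15.7 came last and overlapped in turn. The place of Cry1 and Per1 at the head was thus exchanged. By mean, Per2 was the third in spermatids and the seventh in spermatocytes, where it was above Dbp in all but 1 library. With the length of the longest transcript in place of all exons, the order of means was the same in spermatids. In spermatocytes Tef (238.9) then stood above Clock (211.4), and Per3 (34.1) above Npas2 (29.8). The sums and ratios per kilobase given here used all exons only.

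Summed over the family, the Period RNAs stood at 2607.8 ± 622.2 normalized counts per kilobase in spermatids and 1486.2 ± 135.1 in spermatocytes, and the Cryptochrome RNAs at 468.3 ± 84.1 in spermatids and 2191.5 ± 272.9 in spermatocytes (SD, n = 4 each). The ratio of the sums was 3.23, 4.90, 7.79 and 7.45 in the spermatid libraries, against 0.706, 0.707, 0.635 and 0.675 in the spermatocyte libraries. Period RNA thus exceeded Cryptochrome RNA per kilobase in every spermatid library and in no spermatocyte library. Per1 made up 88.9 ± 1.59% of the Period sum in spermatids and 93.8 ± 0.783% in spermatocytes, and Cry1 76.9 ± 4.19% of the Cryptochrome sum in spermatids and 89.1 ± 0.727% in spermatocytes (SD, n = 4 each). These sums were computed after the values of the members were seen and are given as a description. RNA levels say nothing of PER and CRY protein.

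Around the core loop, 45 related genes in 4 lists were counted in the same fit. There were 42 that could be tested, of which 18 were higher and 6 lower in spermatids, 57.1% against 62.3% of all models. After the GC correction, chosen after seeing the data, these counts were 11 and 15; they were 12 and 11 with equal totals and 12 and 10 with quantile normalization. Over all models 52.2% of the calls were higher in spermatids, 42.6% with equal totals, 44.5% with quantile normalization, 62.7% over those with a known GC content and 43.2% once these were corrected, so the split moved for all genes too.

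**Figure D4:**
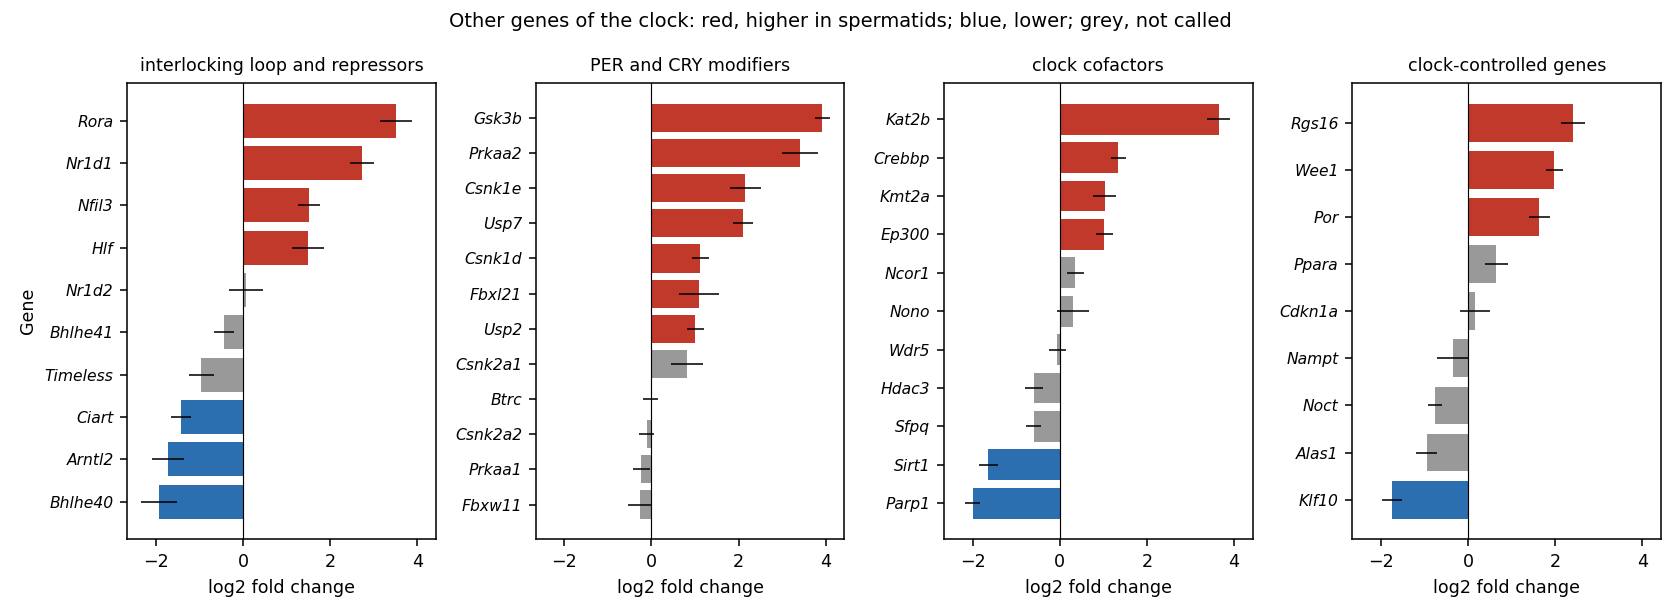
Log2 fold changes, spermatids over spermatocytes, of the related clock genes in 4 lists (bars, with lines of 1 SE); red bars are called higher, blue bars called lower and grey bars not called. Gsk3b (3.92), Kat2b (3.65), Rora (3.51) and Prkaa2 (3.41) reach furthest to the right and Parp1 and Bhlhe40 furthest to the left.

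The second loop, in which REV-ERB repressors and ROR activators act on Arntl, and the further repressors had 11 genes counted here. Of these, 10 were tested, with 4 higher, 3 lower and 3 not called. The called share, 7 of 10, lay near the 62.3% of all models. Nr1d1, which encodes REV-ERBα, had 4202.1, 6023.0, 6917.6 and 5887.1 normalized counts in spermatids, against 601.2, 672.2, 1501.8 and 890.5 in spermatocytes, with no overlap (2.72 ± 0.28 SE on the log2 scale, limma adjusted p = 2.39e-06). Its relative Nr1d2, REV-ERBβ, was not called (0.07 ± 0.38 SE, limma adjusted p = 0.886). The ROR activator gene Rora was higher in spermatids by 3.51 on the log2 scale. Its relative Rorb had at most 15.2 normalized counts and was not tested. The repressors Bhlhe40 (-1.93) and Ciart (-1.42, listed under an older symbol) and the Arntl relative Arntl2 (-1.72) were lower in spermatids. Nfil3, a repressor at D-boxes, was higher by 1.51, and so was Hlf, a PAR bZIP relative of Dbp and Tef, by 1.5, or 0.67 and uncalled after the GC correction. Bhlhe41 and Timeless were at -0.43 and -0.96 and not called.

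Of the 13 genes counted here for enzymes that modify PER and CRY proteins, 12 were tested, with 7 higher and 5 not called, 58.3% called against 62.3% of all models (32.5% higher). Gsk3b, a kinase of several clock proteins, had 14806.7, 19547.3, 23262.9 and 23342.9 normalized counts in spermatids, against 1263.7, 1238.5, 1449.2 and 1302.6 in spermatocytes (3.92 ± 0.18 SE on the log2 scale, limma adjusted p = 3.3e-09). The catalytic AMP kinase subunit gene Prkaa2 was higher by 3.41, whereas Prkaa1 was not called, at -0.23. The PER kinase genes Csnk1e and Csnk1d were higher by 2.15 and 1.12, and the deubiquitinase genes Usp7 and Usp2 by 2.10 and 1.00. Fbxl21, a ubiquitin ligase subunit gene, was higher by 1.10 at low levels of 20.6 to 50.1 in spermatids and 9.67 to 33.5 in spermatocytes, and that call was lost in 12 of 21 alternatives. The calls of Csnk1d and Usp2 were lost with equal totals (0.68 and 0.57), with quantile normalization (0.54 and 0.44) and once corrected for GC content (0.69 and 0.55). They were also lost without spermatocyte library 3 (0.95 and 0.88). In all, Usp2 lost its call in 10 of 22 alternatives, edgeR and DESeq2 included, and lay at the 2-fold threshold, and Csnk1d lost it in 5.

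Of 11 cofactor genes, 4 were higher, 2 lower and 5 not called, 54.5% called against 62.3% of all models. Kat2b, an acetyltransferase gene, had 2 models of that symbol. The model with the higher mean level over all libraries was taken, and it was higher in spermatids by 3.65. The other model is not described here. The coactivators Crebbp and Ep300 were higher by 1.34 and 1.02 and the methyltransferase gene Kmt2a by 1.03, all 3 under 2-fold with equal totals (0.90, 0.59 and 0.59). The calls of Ep300 and Kmt2a were each lost in 7 of 22 alternatives, among them leaving out 1 library, with lowest values of 0.47 and 0.46. Sirt1, a deacetylase that acts on PER2 and ARNTL, and Parp1, which modifies CLOCK, were lower, at -1.64 and -2.0. Of 10 genes known as clock targets in other tissues, 9 were tested and 44.4% of these were called, against 62.3% of all models. Rgs16 (2.41), the cell cycle kinase gene Wee1 (1.98) and the cytochrome P450 reductase gene Por (1.64) were higher in spermatids, Klf10 (-1.75) was lower and 5 were not called.

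Other models overlapped the members in the genome, and the strand setting of the counting is not given in the sources used here. A model without a symbol inside Clock, chromosome 5 from 76232862 to 76233046, lies at the processed pseudogene Ube2n-ps1. It had 8912.9, 14388.8, 17110.9 and 16780.9 normalized counts in spermatids, against 2173.6, 2858.7, 2510.4 and 3232.1 in spermatocytes (2.38 ± 0.23 SE on the log2 scale, limma adjusted p = 1.39e-06), and so ran opposite to Clock. The parent gene Ube2n, on chromosome 10, was higher by 2.15 (limma adjusted p = 4.21e-06), and reads of near-identical copies may be split between both. Dbp shares 741 bases with Sphk2 on the other strand, which had 1005.8 ± 210.1 normalized counts in spermatids and 1496.9 ± 172.1 in spermatocytes (SD, n = 4 each). Cry2 contains the antisense model D930015M05Rik, at 29.1 ± 11.2 in spermatids and 60.6 ± 11.8 in spermatocytes (SD, n = 4 each). In all, 6 members overlapped another model by their spans, which include introns. Whether they share exon bases, and whether reads there were counted for both models, was not tested.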

How the data were processed

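RNA of 4 spermatid and 4 spermatocyte libraries was measured by sequencing. The deposited signal is a normalized read count for each gene model, per the file headers, with DESeq normalization and mm10 coordinates. STAR 2.4.0, SAMtools, Picard, FastQC, DESeq and the mm10 build are listed by the submitters' processing notes. How reads were counted, with or without strand, is not given in the sources used here. All values above 0 lay within 10% of a step from a whole read (100.0% in each library), so reads were recovered. A further 8 value columns were not used.

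Models that reached 10 normalized counts in 4 or more libraries were tested with limma 3.58.1 (R 4.3.3, trend and robust moderation) on log2(normalized count + 1), a scale on which fold changes of low genes are understated. Single genes have p-values adjusted over all tested models in this fit, and a call also needs a 2-fold change. Ratios were compared by exact permutation over libraries, adjusted over 6 pairs. Alternatives used edgeR 4.0.16 and DESeq2 1.42.0 on recovered reads, other scalings, filters and pseudocounts, and leaving out libraries. Only the limma fit and its calls were checked on simulated data. Exon lengths, strands and GC content came from GENCODE M21, and promoters from RefSeq (GRCm38.p6). The floor of 3 reads was 2.42 to 4.50 normalized counts, for counting error only.

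The members, lists and tests were chosen with earlier results of these data known. Named genes were all members, the 2 largest called rises and 2 largest called falls of each related list, any gene of a list of up to 12, and nearest profiles; further modifiers of PER and CRY were named after their values were seen. Some related genes are not reported here and are left out of the counts. Libraries were numbered in record order. Nothing says that each came from its own animals. The p-values therefore measure only the spread between samples, and this may be technical. Libraries of a group differed by more than sampling noise (chi-square per degree of freedom at least 11.2).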

Additional observations from a re-analysis of the deposited data

Results flagged for a closer look

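In 8 of the 80 groups of 4 libraries examined, 1 library stood apart from the other 3 by Dixon's test, which flags about 5% of groups by chance. Among the clock genes, Npas2 was low in spermatid library 3, at 76.6 normalized counts, and high in spermatocyte library 3, at 208.0. The log2 ratio of Per1 to Per3 was low in spermatid library 1, at 4.65. Among related genes, spermatid library 1 was high for Nfil3 (372.6) and Sirt1 (1398.9) and low for Kat2b (3782.9). Spermatocyte library 3 was low for Csnk1d (7369.1), and spermatocyte library 4 was high for Parp1 (18050.9).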

How the results depend on the processing

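Directions and calls of Per2 and Cry1 held in all 22 alternatives. Of the 10 clock genes, 4 to 6 were called without any 1 library. Without spermatocyte libraries 3 and 4, 3 were called, of which 1 was lower, against 62% of all models called. The number higher, 2, was 2 without any 1 library and 1 with equal totals, quantile normalization or the GC correction; 2 to 4 were lower without any 1 library. Of related genes, 20 to 24 were called without any 1 library, 14 to 17 higher and 6 to 7 lower; the GC correction gave 11 higher and 15 lower, equal totals 11 lower and quantile normalization 10 lower. Over all models 17438 to 17967 were called without any 1 library, 17906 by edgeR and 17889 by DESeq2; over models with a known GC content 10145 were called and 11447 once corrected, where fewer models, 17938, were tested. No ratio pair passed (0 of 6) without any 1 library, nor without spermatocyte libraries 3 and 4 (0), as too few libraries remain. Per3 turned to -0.22 with equal totals and -0.15 with quantile normalization (0.22 and 0.21 relative to the median of all models). Once corrected for GC content it was at -0.30. Relative to the median of models with a known GC content, Per3 stood at -0.04 uncorrected and 0.14 once corrected. It ranged from -0.01 to 0.43 without any 1 library. Tef turned to 0.11 with TMM scaling and 0.01 with median-of-ratios scaling (-0.01 relative to the median of all models in both). It was at 0.26 without spermatocyte libraries 3 and 4, and ranged from -0.17 to 0.09 without any 1 library. Dbp was called lower in 7 alternatives and ranged from -1.21 to -0.59 without any 1 library. Why the values of Per3, Tef and Dbp shifted was not tested. No paired analysis was possible because the labels give the libraries no replicate numbers.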

Other observations

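For each clock gene the genes with the most similar profile over the 8 libraries were found among 15590 symbols, by the root mean square distance of log2 values centred on their own mean. The nearest to Cry2 was Napg (0.067), to Clock Usp33 (0.081), to Per1 Map7 (0.085), to Cry1 Stoml1 (0.091), to Tef Pwwp2a (0.097) and to Per2 Med29 (0.108). Dbp had the most distant nearest gene, Pard6b, at 0.215. Arntl was nearest to Mical1, Npas2 to Plcd3 and Per3 to S1pr2, at 0.144 to 0.154. With 15590 genes searched over 8 libraries of 2 cell types, near profiles are to be found for most genes, and the distances are a description.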
